A study of Sus scrofa with 22 samples.

Results

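Matrix glycoproteins and the genes that crosslink or regulate the extracellular matrix were followed through 8 members, FN1, TNC, THBS2, COMP, MFAP5, LUM, LOX and CTGF, of 14389 pig genes with a matched transcript record. In pig fetuses, 7 of the 8 were more abundant in naturally fertilized (NF) fetuses than in cloned fetuses at day 30. Of the 9911 genes tested, 15.3% were lower than NF in normal clones of that day and 14.5% in abnormal clones, at an adjusted p under 0.05 in edgeR. LUM was the exception in normal clones: its level there overlapped that of NF fetuses, and it was low in abnormal clones. MFAP5 was near absent from both kinds of day 30 clone. At day 35 it was at 48.2% to 85.1% of the NF mean in normal clones and at 0% to 5.18% in abnormal clones. The members were chosen by a working list drawn up with measured CPM and TPM values of these libraries already known, and the values that decided it were not recorded. Their fetal group differences are therefore given as a description, with fold changes and standard errors (SE) but no p-values.

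The matrix is built by cells around themselves. Fibronectin, the product of FN1, is laid down as fibrils that integrins pull into shape, and on which other matrix proteins assemble. Tenascins, thrombospondins and CCN proteins modulate how cells adhere to this network, small leucine-rich proteoglycans set the spacing of collagen fibrils, and lysyl oxidase makes collagen and elastin insoluble by oxidising their lysines. In fetal body tissue these proteins come mainly from mesenchyme, and from the cartilage, tendon and dermis that arise from it.

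RNA was sequenced from body tissue of cloned fetuses labelled abnormal (2 libraries at each day), cloned fetuses labelled normal (3 at each day) and NF fetuses (2 at each day), at day 30 and day 35 of development. The remaining 8 libraries, 2 in each group, came from blastocysts grown in vitro to day 6: clones labelled WT+Kdm4A, clones labelled XIST-KO, clones labelled WT, and IVF embryos of both sexes pooled. All clones were made by somatic cell nuclear transfer. XIST is a non-coding RNA that silences the X chromosome it coats, and Kdm4A removes methyl groups from histone H3. Fetuses are labelled male except NF replicate 2 at day 30, labelled female. The labels do not say whether replicates are separate animals or cultures, name the donor line of the clones, or define abnormal.

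Fetus libraries held 0.589 to 11.54 M expected counts, and embryo libraries 6.45 to 20.35 M. The shallowest was abnormal replicate 2 at day 35. It stood apart from its own replicate, with a Spearman correlation over genes of 0.768, while it reached 0.904 with NF replicate 1 of day 30. The Y-linked gene EIF1AY was at 0 CPM (counts scaled to the TMM-adjusted library size) in both day 35 abnormal libraries and in NF replicate 1 of day 30, all labelled male, against 20.5 to 52.9 CPM in the other 11 fetus libraries, the one labelled female included. The sex labels of these libraries are thus in doubt, and whether any library carries another sample's group label cannot be told from the files, so each value is that of the libraries as labelled. For day 35 abnormal clones, values without replicate 2 stand beside the calls against normal clones. In bulk tissue, fewer cells of a type and less RNA per cell cannot be told apart.

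On the Sscrofa11.1 assembly TNC lies at chr1:255533235-255630381, THBS2 at chr1:854473-882467 and CTGF at chr1:31674398-31677697. LOX lies at chr2:125595115-125607026 and COMP at chr2:59061409-59068951. LUM lies at chr5:91748871-91756381, MFAP5 at chr5:62742520-62757522 and FN1 at chr15:117658158-117737145. The 8 loci thus spread over 4 chromosomes. For TNC, 1 of 19 annotated transcripts had a matched record, for MFAP5 1 of 4 and for THBS2 2 of 6, so part of the reads of these 3 genes may lie in records not used here.

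**Figure D1:**
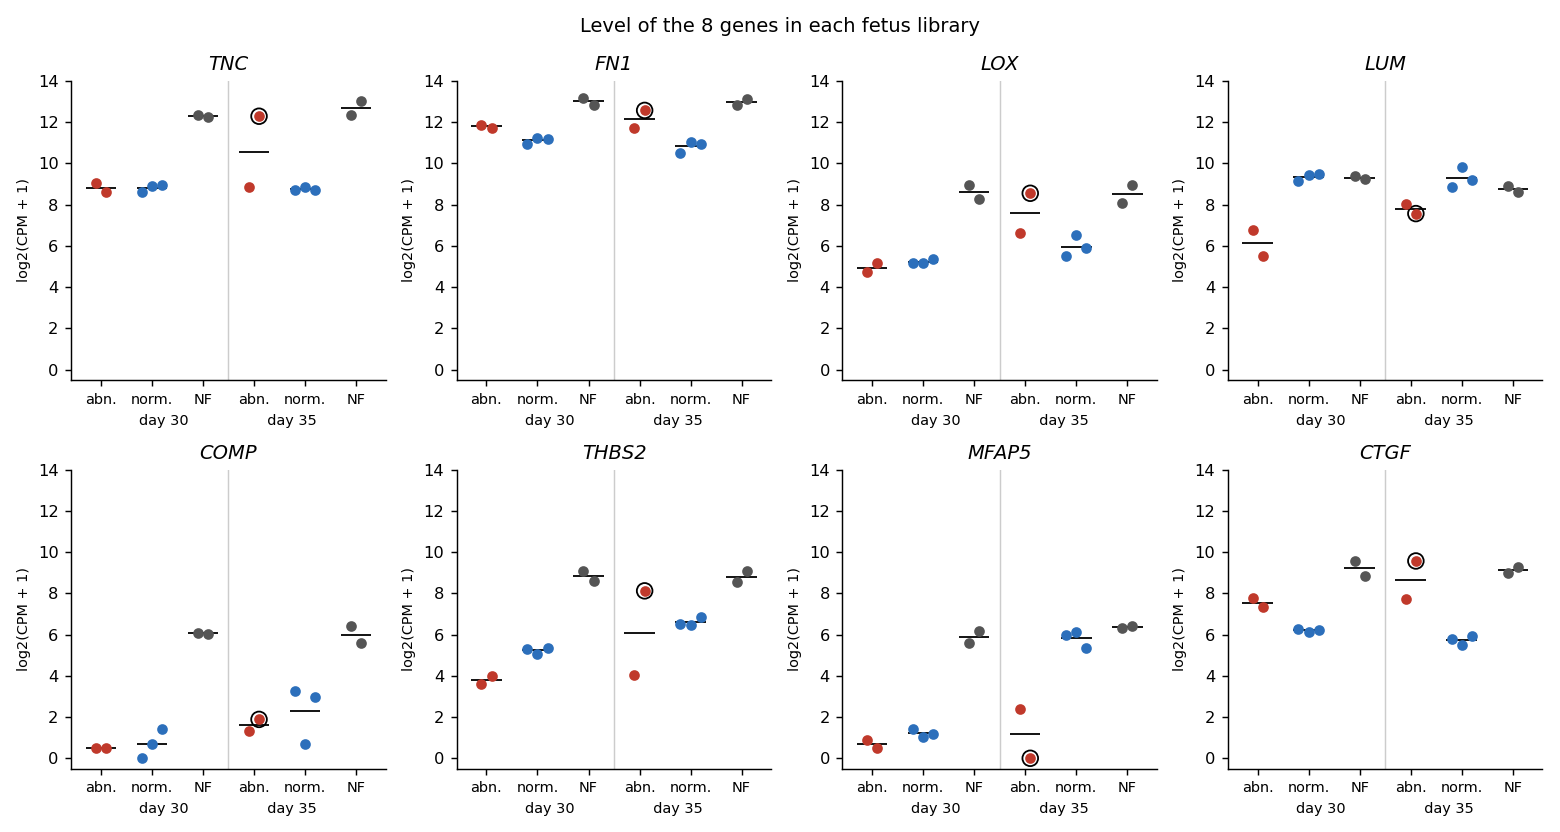
Level of each member in every fetus library as log2(CPM + 1); points are libraries of abnormal, normal and NF fetuses at each day, the bar is the group mean of these log values, and a circle marks abnormal replicate 2 of day 35. TNC, FN1, LOX, THBS2, COMP and CTGF sit highest in NF libraries on both days, save where the circled library comes close to or passes them, while LUM is lowest in abnormal libraries.

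FN1 encodes fibronectin. At day 30 its level was 3778 and 3404 CPM in abnormal clones, 1991, 2394 and 2338 CPM in normal clones and 9348 and 7325 CPM in NF fetuses. The 3 groups did not overlap, and abnormal clones lay between the others. The log2 fold change was -1.22 ± 0.28 (SE) for abnormal against NF and -1.90 ± 0.25 for normal against NF. The first of these was not called without abnormal replicate 1 (-1.28), abnormal replicate 2 (-1.14) or NF replicate 1 (-1.02). At day 35 FN1 was at 3347 and 6102 CPM in abnormal clones, 1434, 2107 and 1972 CPM in normal clones and 7317 and 9070 CPM in NF fetuses. Order and separation were as at day 30, with a log2 fold change of -2.16 ± 0.25 for normal against NF. Abnormal exceeded normal by 1.36 ± 0.25 on the log2 scale, and by 0.90 ± 0.21 without replicate 2.

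TNC encodes tenascin-C, an adhesion-modulating glycoprotein found around condensing mesenchyme and tendon. It had 523 and 391.7 CPM in day 30 abnormal clones, 390, 472 and 502 CPM in normal clones and 5286 and 4854 CPM in NF fetuses. Abnormal and normal libraries overlapped, and both lay below NF, by -3.47 ± 0.77 and -3.48 ± 0.66 on the log2 scale. The abnormal call needed both abnormal libraries, with -3.68 and -3.27 when either was left out. At day 35 the abnormal libraries were split, at 459 CPM in replicate 1 and 5015 CPM in replicate 2, against 424, 465 and 417 CPM in normal clones and 5142 and 8302 CPM in NF fetuses. Replicate 1 lay within the normal range, and replicate 2 lay just under NF. Normal against NF gave -3.95 ± 0.67. Abnormal against normal gave 2.64 ± 0.64 with both libraries and 0.12 ± 0.24, no longer called, without replicate 2. It was also not called without normal replicate 1, at 2.62.

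THBS2 encodes thrombospondin-2, which restrains vessel growth and affects collagen fibril assembly. At day 30 it was at 11.4 and 15.0 CPM in abnormal clones, 39.1, 32.0 and 40.2 CPM in normal clones and 534 and 383 CPM in NF fetuses. Again no group overlapped another, and here abnormal clones were lowest. The log2 fold change against NF was -5.12 ± 0.95 in abnormal and -3.63 ± 0.72 in normal clones. At day 35 the 2 abnormal libraries gave 15.7 and 278 CPM, normal clones 91.0, 86.1 and 116 CPM and NF fetuses 370 and 544 CPM. Normal clones stayed under every NF library, with -2.22 ± 0.69, and the abnormal pair lay on either side of them. That call ended on leaving out any 1 of the 5 normal and NF libraries, with log2 fold changes of -2.48 to -1.92. Without replicate 2, abnormal against normal was -2.59 ± 0.36 and called lower. With it, the comparison was not called.

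COMP encodes cartilage oligomeric matrix protein, a pentameric thrombospondin of cartilage and tendon. At day 30 its level was 0.437 and 0.428 CPM in abnormal clones, 0, 0.609 and 1.66 CPM in normal clones and 66.6 and 64.9 CPM in NF fetuses. The 2 abnormal libraries held 2 counts in total and the NF libraries 914, a ratio of NF over abnormal of 152 (exact 95% counting interval 42 to 1260). Normal against NF gave -6.32 ± 0.86 on the log2 scale. At day 35 COMP was at 1.53 and 2.70 CPM in abnormal clones, 8.74, 0.592 and 6.85 CPM in normal clones and 83.8 and 47.3 CPM in NF fetuses. All clones remained below every NF library, by -5.23 ± 1.17 in abnormal and -3.59 ± 0.71 in normal clones. The abnormal value without replicate 2 was -5.40 ± 1.31, and without replicate 1 it was -4.65 and not called. Replicate 2 held 1 count of COMP where the NF level of that day would give 24.3.

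MFAP5 encodes a small glycoprotein of the microfibrils that scaffold elastic fibres. At day 30 it was at 0.874 and 0.428 CPM in abnormal clones, 1.69, 1.07 and 1.29 CPM in normal clones and 46.7 and 72.0 CPM in NF fetuses. Abnormal libraries summed to 3 counts and NF libraries to 814, a ratio of NF over abnormal of 90.4 (exact 95% counting interval 30.8 to 439), and normal against NF gave -5.46 ± 0.39. At day 35 MFAP5 had 4.22 and 0 CPM in abnormal clones, 62.4, 69.3 and 39.3 CPM in normal clones and 78.7 and 84.2 CPM in NF fetuses. Normal against NF was not called at day 35, although the 3 normal libraries all lay below the NF pair. Abnormal clones were lower than normal by -4.02 ± 0.49 and lower than NF by -4.54 ± 0.51. These became -3.71 ± 0.47 and -4.27 ± 0.49 without replicate 2. That library held 0 counts of MFAP5, where the normal level of day 35 would give 21.1 and the NF level 30.2, and its 3-count limit was 8.09 CPM.

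LUM encodes lumican, a small leucine-rich proteoglycan that binds collagen fibrils. At day 30 its level was 110 and 45.3 CPM in abnormal clones, 568, 700 and 723 CPM in normal clones and 663 and 608 CPM in NF fetuses. Normal and NF libraries overlapped, and abnormal clones lay below both, by -3.10 ± 0.40 against normal and -3.04 ± 0.41 against NF. At day 35 abnormal clones had 265 and 189 CPM, normal clones 470, 896 and 586 CPM and NF fetuses 484 and 389 CPM. Both abnormal libraries were again under every other library of that day. The log2 fold change against normal was -1.50 ± 0.37, and -1.26 ± 0.44 without replicate 2.

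LOX encodes lysyl oxidase, the collagen and elastin crosslinking enzyme. At day 30 it had 25.8 and 34.6 CPM in abnormal clones, 35.0, 35.5 and 40.4 CPM in normal clones and 501 and 307 CPM in NF fetuses. Both clone groups lay far under NF, by -3.74 ± 0.60 in abnormal and -3.45 ± 0.49 in normal clones. At day 35 the abnormal libraries gave 97.8 and 375 CPM, normal clones 44.2, 90.0 and 58.2 CPM and NF fetuses 272 and 502 CPM. Normal clones were below NF by -2.59 ± 0.48, and replicate 2 of the abnormal clones fell inside the NF range. Abnormal against normal was 1.81 ± 0.50 with replicate 2 and 0.65 ± 0.42, not called, without it. Leaving out normal replicate 1 (1.60) or 3 (1.75) ended that call too.

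CTGF, also named CCN2, encodes a matricellular protein whose gene is a standard target of YAP and of TGF-beta. At day 30 it was at 218 and 160 CPM in abnormal clones, 76.9, 68.5 and 73.2 CPM in normal clones and 760 and 459 CPM in NF fetuses. As with FN1, abnormal clones lay between the other groups. Abnormal was above normal by 1.37 ± 0.41 and below NF by -1.69 ± 0.46, and normal was below NF by -3.06 ± 0.42. At day 35 CTGF had 212 and 761 CPM in abnormal clones, 54.1, 43.8 and 60.7 CPM in normal clones and 506 and 612 CPM in NF fetuses. Both abnormal libraries exceeded every normal one, and replicate 2 also exceeded both NF libraries. The excess over normal was 3.17 ± 0.43, and 2.05 ± 0.26 without replicate 2, while normal against NF was -3.40 ± 0.42. The day 30 excess over normal was not called when any 1 of the 5 libraries was left out, with log2 fold changes of 1.14 to 1.58. The call against NF at day 30 ended without abnormal replicate 1 (-1.92), abnormal replicate 2 (-1.48) or NF replicate 1 (-1.27).

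**Figure D2:**
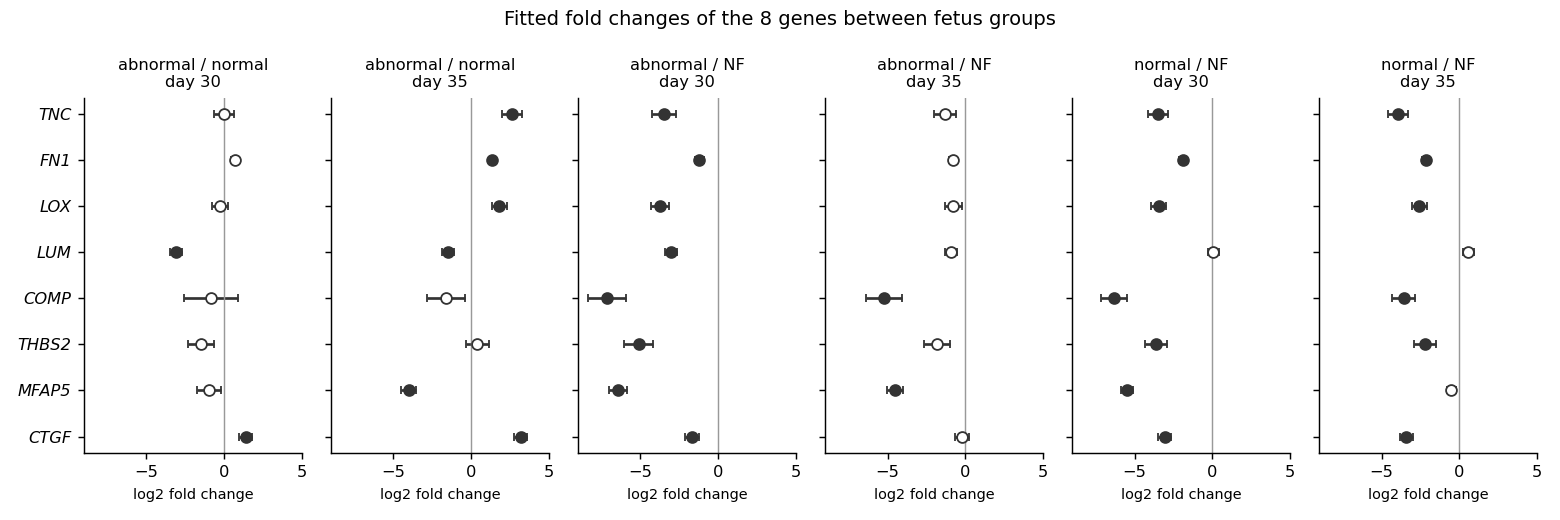
Fitted log2 fold change of each member (rows) in 6 comparisons (panels), with bars of 1 SE; filled points were called and open points were not, and points left of zero are lower in the group named first. At day 30 all 8 members lie left of zero in abnormal clones against NF, and LUM alone lies near zero in normal clones; the COMP and MFAP5 values of day 30 abnormal clones rest on 2 and 3 counts.

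Counted over the members, normal clones were lower than NF fetuses for 7 of 8 at day 30, where 15.3% of the 9911 tested genes were called lower, and for 6 of 8 at day 35, where 20.1% were. Abnormal clones were lower than NF for all 8 at day 30, against 14.5% of genes, and for COMP and MFAP5 at day 35, against 10.2%. Without abnormal replicate 2 the day 35 count was 7 of 8, all but LUM, against 23.2% of the 10275 genes then tested, and none was higher. In that setting TNC was at -3.88 ± 0.31, THBS2 at -4.86 ± 0.40 and LOX at -1.99 ± 0.49. The median log2 fold change of the members against NF was -3.61 in abnormal and -3.46 in normal clones at day 30, beside -0.02 and -0.00 over all genes. At day 35 it was -1.11 in abnormal and -2.41 in normal clones, beside 0.01 and 0.06. Because high NF levels may have led to the choice of the members, these counts are not read further. Without NF replicate 1, normal against NF at day 30 kept 7 calls and abnormal against NF kept 6, with FN1 and CTGF no longer called.

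Between the 2 kinds of clone, the members divided. At day 30 CTGF was higher in abnormal clones (8.93% of genes were) and LUM lower (6.46% were), and the other 6 were not called. At day 35 CTGF, FN1, LOX and TNC were higher, against 10.9% of genes, and LUM and MFAP5 lower, against 12.3%. Without replicate 2 the higher ones were CTGF and FN1 (17.2% of genes) and the lower ones LUM, MFAP5 and THBS2 (17.9% of genes). CTGF and FN1 above normal, with LUM and MFAP5 below it, are the day 35 calls seen both with and without that library. The members were chosen with these data known, so this is a description and not support for them. Without replicate 2, abnormal clones of day 35 were a single library. With both libraries but only the compared groups fitted, FN1 (1.31) and LUM (-1.53) were not called. The change of the abnormal against normal difference from day 30 to day 35 was called for 0 of 8 members by edgeR, with 4.05% of genes called; 5 members had an unadjusted p under 0.05, as had 2180 of 9911 genes, and DESeq2 called 4 members among 937 of 9893 genes.

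**Figure D3:**
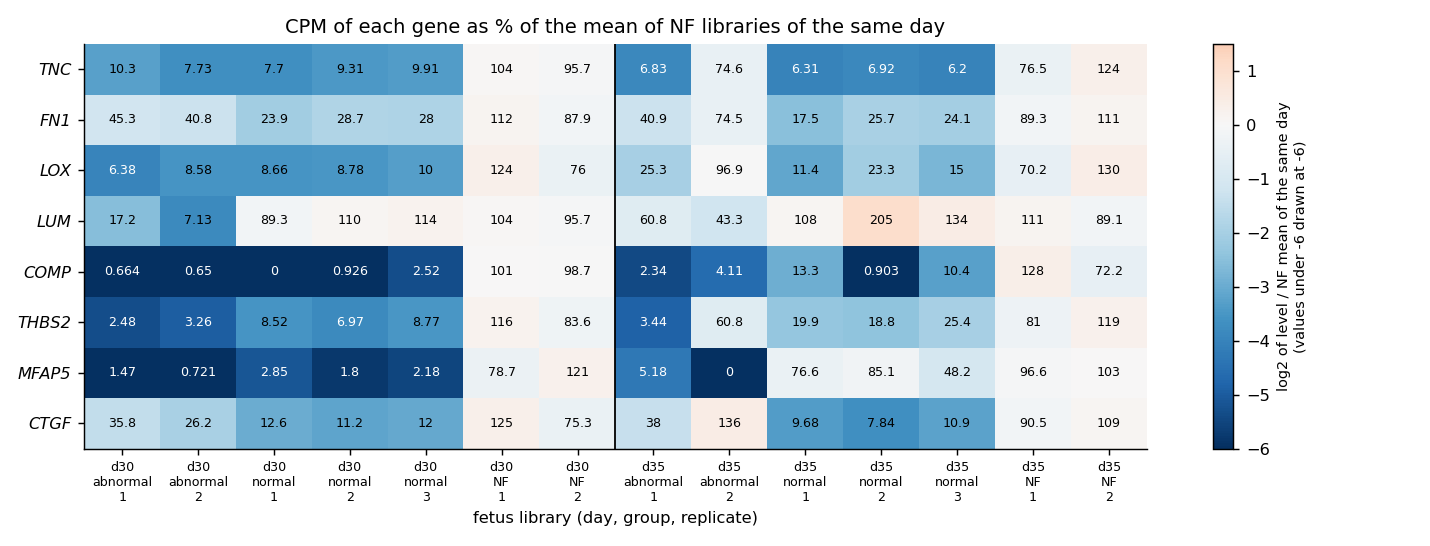
Heat map of each member (rows) in each fetus library (columns): the printed number is its CPM as a percentage of the mean of the 2 NF libraries of the same day, and the colour is the log2 of that ratio, drawn no lower than -6. At day 30 the normal clones held 7.70% to 9.91% of the NF level of TNC but 89.3% to 114% of that of LUM, and MFAP5 in normal clones was at 1.80% to 2.85% at day 30 and 48.2% to 85.1% at day 35.

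Expressed as a share of the NF mean of the same day, the members reached different levels in normal clones. FN1 was at 23.9% to 28.7% at day 30, LOX at 8.66% to 10%, CTGF at 11.2% to 12.6% and COMP at 0% to 2.52%. The members thus did not sit at one common fraction of NF. Abnormal replicate 2 of day 35 held 74.6% of the NF level of TNC, 74.5% of FN1, 60.8% of THBS2, 96.9% of LOX and 136% of CTGF, but 4.11% of COMP and 0% of MFAP5. Its partner, replicate 1, held 6.83% of TNC, 40.9% of FN1, 3.44% of THBS2 and 25.3% of LOX.

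From day 30 to day 35 the largest change was MFAP5 in normal clones, 5.41 ± 0.38 on the log2 scale, the one member called there (5.35% of genes were higher). In abnormal clones LOX alone was called, at 2.89 ± 0.60 (1.63% of genes were higher), and at 1.68 ± 0.48 without replicate 2 (4.62% of genes were higher). It was not called without abnormal replicate 1 (2.64) or 2 (3.07) of day 30. In NF fetuses no member and no gene of 9911 was called between the days by edgeR, although 351 genes had an unadjusted p under 0.05 and DESeq2 called 11 genes, none of them a member. The gap of normal clones to NF shrank for MFAP5 by 4.95 ± 0.52 log2 units, one of 2 genes called in that comparison (0.0202%), which was added after the data were seen. That call ended without normal replicate 2 of day 30, normal replicate 1 of day 35 or either NF library of day 35, with values of 4.79 to 4.997. The gap of abnormal clones to NF changed for 0 of 8 by edgeR (0.767% of genes were called), with 4 at an unadjusted p under 0.05, as were 1340 of 9911 genes, and 2 called by DESeq2 among 384 of 9316 genes.

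Per length, as TPM (the length-scaled abundance that RSEM gives), the order of the members differed between the groups. In day 30 abnormal clones FN1 led, at 379 ± 41.2 TPM (SD, n = 2), and LUM had 39.7 ± 24.4 TPM. In day 30 normal clones LUM led, at 410 ± 43.0 TPM (SD, n = 3), ahead of FN1 at 291 ± 20.9 TPM. TNC followed at 87.5 ± 9.13 TPM, CTGF at 57.1 ± 4.70 TPM and LOX at 29.3 ± 2.27 TPM, with THBS2 at 6.503 ± 0.898 TPM, MFAP5 at 2.13 ± 0.55 TPM and COMP at 0.36 ± 0.41 TPM. In day 30 NF fetuses FN1 averaged 1047 ± 152 TPM (SD, n = 2) and TNC 946 ± 29.5 TPM, whose libraries overlapped. CTGF at 460 ± 141 TPM overlapped LUM at 382 ± 7.71 TPM and LOX at 309 ± 91.4 TPM, and MFAP5 at 92.1 ± 33.8 TPM overlapped THBS2 at 77.6 ± 16.0 TPM. COMP was lowest, at 31.1 ± 0.62 TPM. The TNC level rests on its 1 matched record and may be understated.

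Across the 14 fetus libraries, Pearson correlations of log2(CPM + 1) between members are a description, since the libraries share groups and depth. FN1 and CTGF had 0.962 and TNC and LOX 0.939, while LUM ranged from -0.256 with CTGF to 0.537 with MFAP5. Over the 9314 genes whose mean log2 CPM was 1 or more, the 3 most like THBS2 were AEBP1 (0.985), COL5A1 (0.977) and ANGPTL2 (0.977), and those most like LUM were OGN (0.959), FIBIN (0.956) and KERA (0.955). COL5A1 is a fibrillar collagen chain, and OGN and KERA are small leucine-rich proteoglycans like LUM itself. TNC was most like NPM3 (0.991), LRRC59 (0.990) and EIF4A3 (0.985), and FN1 like SLC19A2 (0.966), MFSD14B (0.965) and HNRNPF (0.962). LOX was most like TOR1AIP2 (0.971), RAB11FIP5 (0.966) and RBM3 (0.961), and COMP like RRP36 (0.958), ENG (0.950) and IL18R1 (0.938). The closest to CTGF were MFSD14B (0.973), PTGS2 (0.971) and FOSL1 (0.970), and to MFAP5 S100A9 (0.942), SLC7A10 (0.939) and ARHGAP1 (0.938).

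Other matrix genes were taken from lists of known families. The list counts here and in the next 3 paragraphs are a description, to be set beside the calls over all 9911 tested genes. Normal against NF, 1387 genes were higher and 1519 lower at day 30, and 2195 higher and 1995 lower at day 35. Abnormal against normal, 885 were higher and 640 lower at day 30, and 1085 higher and 1215 lower at day 35. Of 26 other matrix glycoproteins tested, 11 were lower and 0 higher in normal clones than in NF at day 30, and 6 were lower and 4 higher at day 35. Their median log2 fold changes were -0.68 and 0.05. Abnormal against normal, 3 were higher and 3 lower at day 30, and 4 and 6 at day 35 (5 and 7, and 7 and 6, when abnormal replicate 2 of day 35 was left out of the fit). CYR61, a CCN protein like CTGF, was higher by 2.24 ± 0.54 and 3.39 ± 0.56 (2.13 at day 35 without replicate 2). Higher by the same rule were TNXB (2.46 ± 0.31) and THBS3 (0.92 ± 0.23) at day 30, and NOV (2.95 ± 0.57), FBLN7 (1.87 ± 0.51) and THBS1 (4.40 ± 0.83) at day 35. For THBS1 the abnormal libraries had 822 and 16290 CPM, normal clones 296 to 509 CPM, and the fold change was 1.06 without replicate 2. SPARCL1, an antiadhesive relative of SPARC, was lower by -4.67 ± 0.37 at day 30 and -5.19 ± 0.38 at day 35. The microfibril-associated FBLN5 was lower by -2.25 ± 0.36 and -1.65 ± 0.36, and the cartilage protein MATN3 by -2.54 ± 0.56 and -2.25 ± 0.65. SPON1 was lower at day 35 by -2.71 ± 0.46. Without abnormal replicate 2 the day 35 values were 3.75 for NOV, 2.60 for FBLN7, -4.99 for SPARCL1, -2.35 for FBLN5 and -2.43 for SPON1, all still called, and -2.16 for MATN3, no longer called.

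Among 15 proteoglycans and link proteins tested besides LUM, 8 were lower in normal clones than in NF at day 30 and 3 were lower and 1 higher at day 35. Abnormal against normal, 6 were lower and 1 higher at day 30, and 4 and 1 at day 35 (7 and 1 without replicate 2). OGN and KERA, which belong to LUM's family, moved with it: OGN by -5.16 ± 0.57 and -3.89 ± 0.51, and KERA by -4.63 ± 0.52 and -2.24 ± 0.43. OGN was at 2.14 and 14.4 CPM in day 30 abnormal clones, 251 to 382 CPM in normal clones and 388 and 423 CPM in NF fetuses. PRELP had 0.428 and 1.31 CPM in day 30 abnormal clones against 60.3 to 69.5 CPM in normal clones. DCN, the fibril-binding decorin, was lower at day 35 by -1.67 ± 0.53 with both libraries and by -0.92 and not called without replicate 2. CHAD was lower there by -2.52 ± 0.71, and the link protein HAPLN3 was the one higher, by 1.78 ± 0.29 at day 30 and 1.07 ± 0.32 at day 35. Without abnormal replicate 2 the day 35 values were -3.59 for OGN, -2.07 for KERA, -2.66 for CHAD and 1.06 for HAPLN3, all still called.

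Of 12 collagen-crosslinking and modifying enzymes tested, 5 were lower in normal clones than in NF at day 30 and 1 at day 35 (8 and 5 when abnormal replicate 2 of day 35 was left out of the fit). Abnormal against normal, 4 were higher and 2 lower at day 30, and 2 were higher at day 35 (5 and 2 at day 30, and 3 higher and 1 lower at day 35, without that library). P4HA1 and P4HA2, the prolyl 4-hydroxylase subunits that stabilise the collagen helix, were higher by 2.78 ± 0.64 and 1.79 ± 0.39 at day 30. At day 35 they were higher by 3.21 ± 0.65 and 1.87 ± 0.39, and without abnormal replicate 2 by 4.12 and 2.56. LOXL4, a relative of LOX, was higher at day 30 by 2.03 ± 0.52, as was the transglutaminase TGM2 by 1.66 ± 0.51. LOXL1, a relative that acts on elastin, was lower by -1.29 ± 0.25, as was the procollagen protease enhancer PCOLCE2 by -2.14 ± 0.53. The crosslinking enzymes thus did not move one way.

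The next list mixes genes known to respond to TGF-beta or YAP with members of these pathways, such as TGFB1, TGFB3 and WWTR1. Its counts are thus no measure of a response alone. Of its 16 genes, CTGF apart, 10 were lower in normal clones than in NF at day 30. At day 35, 12 were lower and 1 higher. Abnormal against normal, 5 were higher and 2 lower at day 30, and 9 were higher and 0 lower at day 35 (11 and 5, and 6 and 1, when abnormal replicate 2 of day 35 was left out of the fit). F3, which encodes tissue factor, was higher by 3.73 ± 0.56 and 4.79 ± 0.56 (5.05 at day 35 without replicate 2). TGFB1 was higher at day 30 by 2.70 ± 0.30 and ANKRD1 by 4.21 ± 1.10, while AMOTL1 was lower by -1.08 ± 0.21 and TGFB3 by -0.74 ± 0.21. With abnormal replicate 2 of day 35 left out of the fit, the day 30 values hardly moved, with F3 at 3.735 and TGFB1 at 2.70. The share of all genes called at day 30 in that fit is not given here. The added day 30 calls of this and the other lists are therefore not read as results about the lists. WWTR1, the YAP partner TAZ, was at 15.7 and 2.70 CPM in abnormal clones of day 35 and at 0 counts in normal clones. The lower value is that of replicate 2 and lies under its 3-count limit of 8.09 CPM. At day 30 WWTR1 was at 0 in abnormal replicate 1 and in all normal clones. It was above 0 in every NF library.

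**Figure D4:**
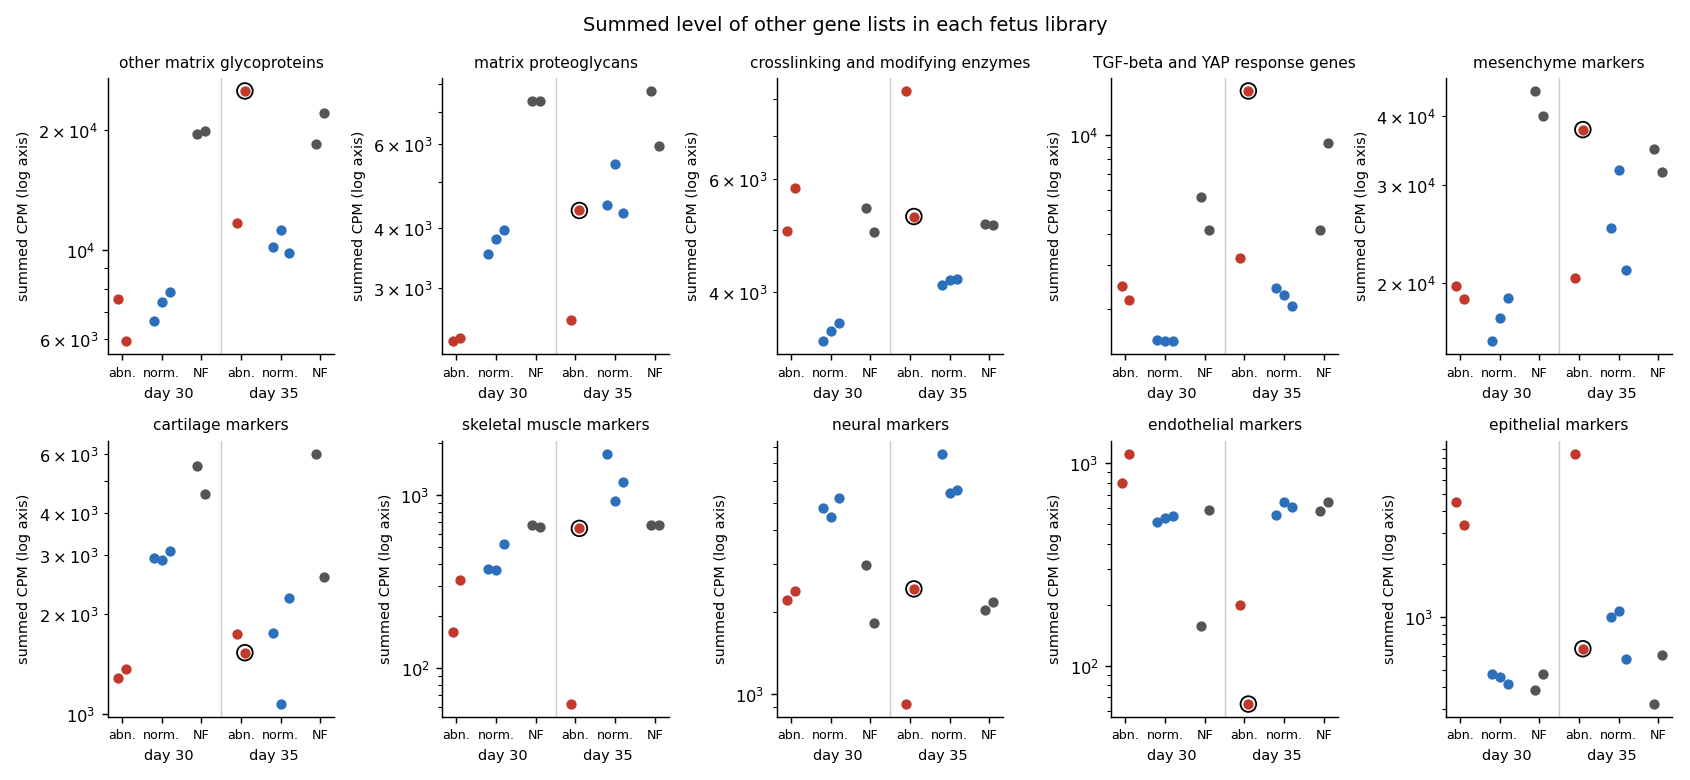
Summed CPM of 4 lists of other matrix, response and pathway genes and 6 lists of cell type markers in each fetus library, on log axes that differ between panels. Points are abnormal, normal and NF libraries at each day, and a circle marks abnormal replicate 2 of day 35. The mesenchyme sum is 15663 to 18783 CPM in day 30 normal clones and 39886 to 44338 CPM in day 30 NF libraries, and the epithelial sum is highest in the 3 abnormal libraries that are not circled.

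Marker lists of cell types differed between the same groups. Mesenchyme markers (6 of 11 had a record, none at 0) summed to 18716 to 19721 CPM in abnormal clones of day 30, 15663 to 18783 CPM in normal clones and 39886 to 44338 CPM in NF fetuses. At day 35 the sums were 20386 to 37758 CPM in abnormal clones, 21057 to 31890 CPM in normal clones and 31712 to 34842 CPM in NF fetuses. These sums hide different moves of single genes. Abnormal against normal at day 30, TWIST1 (-1.59 ± 0.25) and TWIST2 (-2.70 ± 0.43) were lower and 0 of the 6 higher. Normal against NF, 1 was higher and 3 lower at day 30, and 2 and 2 at day 35. Over all 9911 genes, 1387 were higher and 1519 lower at day 30, and 2195 and 1995 at day 35. Neural markers (10 of 12) were highest in normal clones, at 2217 to 2383 CPM in abnormal clones, 4441 to 5223 CPM in normal clones and 1820 to 2964 CPM in NF fetuses of day 30. Epithelial markers (10 of 10) were at 3312 to 4470 CPM in abnormal clones of day 30, 414 to 475 CPM in normal clones and 385 to 472 CPM in NF fetuses. At day 35 they were at 8458 CPM in abnormal replicate 1 and 661 CPM in replicate 2, against 575 to 1080 CPM in normal clones. Blood markers (10 of 10) summed at day 35 to 18.9 CPM in abnormal replicate 2, where 8 of the 10 were at 0, and to 2258 CPM in replicate 1. The 3-count limit of replicate 2 was 8.09 CPM. Normal clones of day 35 had 1426 to 2862 CPM and NF fetuses 211 to 229 CPM. The sum of replicate 1 joins opposite moves against normal clones. Without replicate 2, HBE1 was at 6.42 and HBZ at 6.24 on the log2 scale, but HBB at -6.70 and ALAS2 at -2.76. Cartilage markers (8 of 14) were at 1281 to 1370 CPM in abnormal clones of day 30, 2901 to 3077 CPM in normal clones and 4563 to 5553 CPM in NF fetuses. At day 35 abnormal (1530 to 1741 CPM) and normal clones (1074 to 2229 CPM) overlapped, and NF fetuses had 2569 to 6026 CPM. Abnormal against normal at that day, COL11A1 was higher (1.04 ± 0.34), while COL9A1 (-1.66 ± 0.44) and MATN3 (-2.25 ± 0.65) were lower. Skeletal muscle markers (10 of 12) were at 162 to 322 CPM in abnormal clones, 371 to 524 CPM in normal clones and 659.8 to 676 CPM in NF fetuses of day 30. At day 35 they were at 62.2 to 645 CPM in abnormal clones, 933 to 1744 CPM in normal clones and 675 CPM in both NF libraries. Tendon markers (5 of 7) were at 1001 to 1130 CPM in abnormal clones, 232 to 289 CPM in normal clones and 1407 to 1717 CPM in NF fetuses of day 30. At day 35 they were at 691 to 1405 CPM in abnormal clones, 689 to 850.3 CPM in normal clones and 1195 to 1442 CPM in NF fetuses. The tendon list did not move one way between abnormal and normal clones. At day 30 EGR1 (4.03 ± 0.81) and EGR2 (3.40 ± 0.49) were higher, while TNMD (-4.32 ± 0.45) and KERA (-4.63 ± 0.52) were lower. The same 4 genes were called in the same directions at day 35. Of the muscle markers MYF6 and TNNT3 were at 0 in both abnormal libraries of day 35. Endothelial markers (6 of 9) were at 799.5 to 1114 CPM in abnormal clones, 512 to 547 CPM in normal clones and 157 to 589.8 CPM in NF fetuses of day 30. At day 35 they were at 64.7 to 201 CPM in abnormal clones, 554 to 641 CPM in normal clones and 580.3 to 645 CPM in NF fetuses. The part of these cell types in the member differences was not tested.

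In day 6 embryos the members were near or at the limit of detection. TNC, LUM, COMP and THBS2 had 0 counts in all 8 libraries, where 3 counts equal 0.181 to 0.522 CPM. LOX had 7 counts in 1 XIST-KO library, 41 in 1 IVF library and 0 in the others, and CTGF had 0 to 8. FN1 had 285 and 15.9 expected counts in WT+Kdm4A embryos, at 17.2 and 1.28 CPM, and 0 in both WT libraries. MFAP5 had 37 and 17 counts in WT+Kdm4A embryos against 1 and 0 in WT embryos. Only FN1 and MFAP5 passed the filter on low counts there, and both were higher in each WT+Kdm4A library than in each WT library. FN1 passed through WT+Kdm4A alone, since every other embryo library held at most 1.57 expected counts of it. MFAP5 also had its highest counts in that group. Because the filter kept genes by the group where they were high, the p-values below are a description and are not read further. In edgeR's quasi-likelihood test of WT+Kdm4A against WT, the adjusted p was 0.113 for FN1 and 0.234 for MFAP5, so neither passed 0.05, while 7.43% of the 6958 tested genes did. FN1 had an unadjusted p of 0.0194, and DESeq2 gave it an adjusted p of 0.0491. Over the other settings, libraries left out included, the adjusted p of FN1 ran from 0.042 to 0.343. XIST-KO against WT and WT against IVF called 0 of these 2 genes, with 1.11% and 5.71% of genes called, neither at an unadjusted p under 0.05, and DESeq2 called none.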

How the data were processed

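RNA was sequenced from 22 pig libraries. The authors used RSEM 1.2.4 and the pig build Sscrofa11.1 (susScr11), per the submitters' processing notes; the aligner is not given in the sources used here. The deposited tables list 65927 RefSeq transcript records, each with an expected count and TPM, per the file headers. Records were matched to symbols by RefSeq accession without its version (25305 records, 38.4%, in 14389 genes), and both units were summed per symbol. Accessions with versions gave 7.2%. In fetuses 66.0% to 69.0% of all counts fell in matched records, and in embryos 79.5% to 85.0%.

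Expected counts were rounded and fitted per stage, 1 mean for each group, with edgeR 4.0.16 (R 4.3.3): filterByExpr, TMM, quasi-likelihood F-test and Benjamini-Hochberg adjustment over all genes, with calls at 0.05. Biological variation between libraries (the coefficient of edgeR) came to 0.29 for fetuses and 0.893 for embryos. SE is the absolute log2 fold change over the square root of F. Alternatives were RLE size factors, no filter, a filter at 1 CPM in 2 libraries, a replicate block, records matched with version, DESeq2 1.42.0, limma 3.58.1 on log2(TPM + 1) and log2(TPM + 0.1), only the compared groups, and each library left out. On data simulated with log2 changes of 2, 60.4% were called in day 30 abnormal against normal, 72.8% in day 35 normal against NF and 0.543% in WT against IVF.

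The members and lists were chosen with earlier results of these data known, and 2 comparisons were added after the data were seen. All members are named; of each list of matrix genes up to 4 called genes per direction are named by size of fold change between abnormal and normal clones. Intervals and 3-count limits cover counting error only. Summaries were made in Python 3.11.15 with pandas 2.3.3 and numpy 2.4.6, and plots with matplotlib 3.10.9. XIST, KDM4A and unmatched records are not analysed here. A gene that the naming rule gives is not reported here.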

Additional observations from a re-analysis of the deposited data

Results flagged for a closer look

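MFAP5 was marked because the difference between normal clones and NF fetuses was not the same at day 30 and day 35. The change of the log2 fold change was 4.95 ± 0.52 (SE), from a contrast of the group means in the edgeR fit. This comparison was added after the data were seen, and MFAP5 is a member chosen with these data known. MFAP5 was at 1.07 to 1.69 CPM in normal clones against 46.7 and 72.0 CPM in NF fetuses at day 30, and at 39.3 to 69.3 CPM in normal clones against 78.7 and 84.2 CPM in NF fetuses at day 35. All 3 normal clones of day 35 were above all 3 of day 30. The direction was the same in every alternative run. The call ended with limma on log2(TPM + 1) and log2(TPM + 0.1), at 4.23 and 4.71, and on leaving out normal replicate 2 of day 30 (4.79), normal replicate 1 of day 35 (4.88), NF replicate 1 of day 35 (4.90) or NF replicate 2 of day 35 (4.997).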

How the results depend on the processing

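Counts of members called moved as follows. Abnormal against normal at day 30 gave 2, with 1 under version matching, limma at either pseudocount, no filter or the replicate block, 4 with only the compared groups or without abnormal replicate 2 of day 35, 3 with DESeq2, and 1 on leaving out any compared library. At day 35 it gave 6, with 2 for only the compared groups, 5 with the replicate block (TNC lost), and 4 to 7 on leaving out a library. Abnormal against NF gave 8 at day 30 (4 by version; 5 to 8 left out) and 2 at day 35 (1 by version, 3 with DESeq2, 6 and 5 with limma at pseudocounts 1 and 0.1, 0 for only the compared groups; 1 to 7 left out). Normal against NF gave 7 at day 30 (3 by version; 7 left out) and 6 at day 35 (2 by version; 5 left out, THBS2 lost). Version matching leaves 4 members by construction: TNC, LOX, LUM and MFAP5.

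Day 35 against day 30 gave 1 in abnormal clones (4 with DESeq2, 2 with limma at either pseudocount, 0 for only the compared groups; 0 to 5 left out) and 1 in normal clones (2 with DESeq2, 4 for only the compared groups, 3 without abnormal replicate 2; 1 to 2 left out), and 0 in NF fetuses throughout. The change between days of abnormal against normal gave 0 (4 with DESeq2, 1 with limma at pseudocount 1; 0 to 6 left out). That of normal against NF gave 1 (0 with limma at either pseudocount, 2 for only the compared groups or without abnormal replicate 2; 0 to 1 left out). That of abnormal against NF gave 0 (2 with DESeq2; 0 to 4 left out). WT+Kdm4A against WT gave 0 (1 with DESeq2 and 1 for only the compared groups, FN1 in both; 0 left out). The other embryo comparisons gave 0 throughout. The number of all genes called moved with the setting too, so these member counts are not read on their own. For day 35 against day 30 in abnormal clones it was 348 of 9911 in the main fit and 865 of 9316 with DESeq2. For abnormal against normal at day 30 it was 1525 of 9911 and 2080 of 9893. For WT+Kdm4A against WT it was 517 of 6958 and 1554 of 6283.

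None of the 34 calls of a member in a comparison changed sign. Of 165 values with a library left out, 30 lost the call, and of 315 under the other settings, 19 did; beyond the use of fewer samples or members, the cause was not tested. Replicate numbers were not shown to pair samples (correlations of deviations -0.081 to 0.177 between same-numbered fetus libraries), and the block ended the calls of CTGF at day 30 and TNC at day 35, abnormal against normal.

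Groups of 2 or 3 libraries limit all tests, and COMP and MFAP5 in abnormal clones rest on a few counts.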
